A study of Bos taurus with 9 samples.

Results

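S100A8, S100A9, S100A12, CAMP, LTF, FCGR3 and CSF3R are 7 genes of the neutrophil: the calgranulins of its cytosol, proteins of its granules, and receptors on its surface. They were taken by gene symbol from the annotation of the array's probes, with no use of measured values. By that rule 6 of the 7 genes had a probe. S100A8, S100A9, S100A12, CAMP and LTF had 1 each and FCGR3 had 3, which gives 8 of 43794 probes, and all 8 were among the 38823 probes bright enough to be tested. CSF3R was not analysed here. The cells were granulosa cells of dominant preovulatory follicles of Holstein-Friesian cows, drawn by ovum pick-up 42 hours after an injection of prostaglandin. Cows were sampled at 30, 60, 90 and 120 days after calving, with 3 biological replicates per day. The RNA of each replicate of 30, 60 and 90 days was labelled with Cy5 and hybridised beside 120-day RNA labelled with Cy3. All groups thus share breed, cell source and prostaglandin treatment, and differ in the time since calving. No sort of cells is given in the sources used here.

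Neutrophils are short-lived white blood cells that carry ready-made antimicrobial proteins. S100A8 and S100A9 are small calcium-binding proteins that pair to form calprotectin, which makes up much of the neutrophil cytosol, is also made by monocytes, and starves microbes of zinc and manganese. S100A12 is another calgranulin and a ligand of the receptor AGER. CAMP, a cathelicidin precursor, and LTF, the iron-binding lactoferrin, are stored in secondary granules, and lactoferrin is also secreted by gland epithelia such as that of the udder and the uterus. FCGR3, whose current symbol is FCGR3A, is the low-affinity immunoglobulin G receptor CD16, carried by natural killer cells, monocytes and macrophages as well. CSF3R receives granulocyte colony-stimulating factor, which drives neutrophil production. White blood cells enter the wall of the follicle around ovulation. In the RefSeq gene order of assembly ARS-UCD2.0, S100A8, S100A12 and S100A9 stand side by side on chromosome 3, while CAMP and LTF both lie on chromosome 22.

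Ratios are given as log2 of the day over 120 days, so a negative value means less RNA in the earlier sample. Levels are log2 signals of one channel after scaling between arrays, and cannot be compared between probes. A spot counted as above background when it exceeded the mean of 153 negative control spots by 2 SD. The share of probes above background ran from 29.8% to 82.3% in Cy5, lowest on 30 days replicate 1, and from 20.9% to 84.2% in Cy3, lowest on 60 days replicate 3. A pair of features of the arrays bears on every value below. First, 3 sets of 3 arrays could be told apart by their 120-day channels, each with 1 array of every day. Cy3 levels correlated at r of 0.968 to 0.990 within a set and 0.892 to 0.957 between sets. Set A was made up of replicate 1 at 30 days, replicate 1 at 60 days and replicate 2 at 90 days, and set B of replicate 2 at 30 days, replicate 2 at 60 days and replicate 1 at 90 days. Every replicate 3 belonged to set C. That a set is 1 RNA is inferred from these signals. Second, the authors' value table went against the names of the array files. Of its 9 columns 1 correlated best with the ratios of its own array, and that at r = 0.068 only (30 days replicate 2). A further 2 correlated with their own array below -0.3 (-0.760 for 60 days replicate 3 and -0.397 for 90 days replicate 2). The column of 30 days replicate 1, for example, correlated best with the array of 60 days replicate 1 (r = 0.930). The assignment of arrays to days therefore rests on the names of the array files.

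The calgranulins S100A8 and S100A9 were low on every 60-day array. They varied widely at 30 and 90 days. S100A9, the partner that stabilises calprotectin, had log2 ratios of -2.28, 0.33 and -0.57 on replicates 1, 2 and 3 of 30 days. At 60 days they stood at -3.74, -2.76 and -3.36, and at 90 days at -2.50, -0.03 and -0.05. The 60-day values thus lay below all others, while replicate 1 of both 30 and 90 days lay well below its companions. The mean Cy5 level of S100A9 was 10.35 ± 1.17 at 30 days, 8.03 ± 0.31 at 60 days and 10.42 ± 1.88 at 90 days (SD, n = 3 arrays each), and its 120-day level was 11.26 ± 0.45 over the 3 sets. The gap between days was narrow at 1 point, since the highest 60-day level was 8.25 and the lowest 90-day level 8.26. S100A9 fell at 60 days, to a level 9.75-fold below that of 120 days (log2 -3.29 ± 0.61 SE, n = 3, limma adjusted p = 0.0179). With the 120-day RNA set as a block, the adjusted p was 0.0313. It was 0.102 without 60 days replicate 1 and 0.0906 without 60 days replicate 3. In bulk RNA of this kind, fewer cells that carry a transcript and less of it per cell cannot be told apart. The 60-day spots of S100A9 were 1.29, 1.67 and 1.81 times the background threshold, so the size of its fall is less certain than its direction.

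S100A8 followed a like course over the arrays. Its log2 ratios were -1.93, 0.84 and -0.94 on the 30-day arrays, -3.09, -1.90 and -2.10 on the 60-day arrays, and -1.90, -0.92 and 0.95 on the 90-day arrays. All 3 of the 60-day values were negative, but they overlapped the other days, because 1 array of 30 days and 1 of 90 days stood at about the level of 60 days replicate 2. The Cy5 level was 9.37 ± 0.85 at 30 days, 7.90 ± 0.29 at 60 days and 9.71 ± 1.91 at 90 days, against 10.21 ± 0.53 at 120 days (SD, n = 3 each). These levels overlapped too, as 90 days replicate 1 stood at 7.75, below 60 days replicates 2 (7.89) and 3 (8.20). S100A8 was 5.15-fold lower at 60 days than at 120 days, at the edge of the threshold (log2 -2.36 ± 0.64 SE, n = 3, limma adjusted p = 0.0496), and missed it with the 120-day RNA set as a block (adjusted p = 0.0544). Its 60-day spots were 1.21, 1.34 and 1.67 times the background threshold, so the size of this difference is not firm. The 120-day levels of both genes were lowest in set B, at 9.62 for S100A8 (10.65 in set A and 10.38 in set C) and 10.77 for S100A9 (11.34 in set A and 11.66 in set C). Over the 9 arrays the ratios of S100A8 and S100A9 went together (Pearson r = 0.903, Spearman rho = 0.90). Their Cy5 levels alone, which do not contain the 120-day signal, gave r = 0.925. These are descriptions over n = 9 arrays that share 3 sets of 120-day RNA.

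S100A12 was close to background on most arrays. Its log2 ratios were -0.15, 0.91 and 0.09 on the 30-day arrays, -0.80, -0.36 and -0.57 on the 60-day arrays, and -0.27, 0.17 and -0.47 on the 90-day arrays. Its Cy5 spots were above background on 2 of 3 arrays at 30 days, 1 of 3 at 60 days and 1 of 3 at 90 days, and its 120-day spots on 8 of 9 arrays. The 60-day ratios were negative on all 3 arrays but overlapped those of 90 days, and the difference from 120 days did not pass (log2 -0.58 ± 0.21 SE, n = 3, limma adjusted p = 0.105). The clear exception to its low signal was 30 days replicate 2, where the Cy5 level reached 8.79, against 7.40 to 8.29 on the other arrays.

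**Figure D1:**
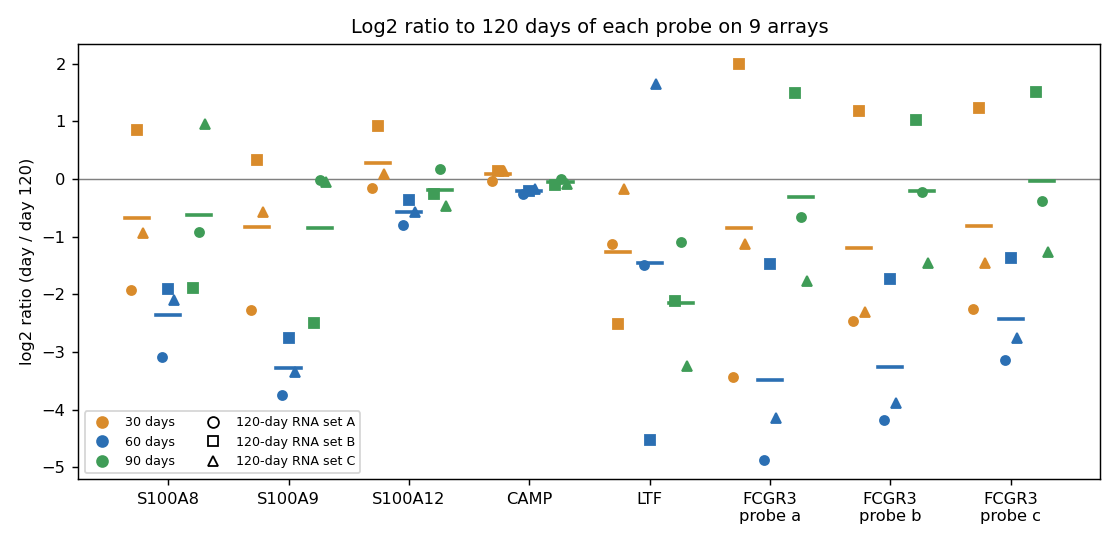
Log2 ratio of each day to 120 days (y axis) for the 8 probes (x axis) on each of the 9 arrays, coloured by day, with the symbol giving the set of 120-day RNA and a bar at the mean of each day. All 60-day values of the calgranulins, CAMP and the FCGR3 probes lie below 0, while LTF runs from -4.53 to 1.64 within 60 days.

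CAMP, the cathelicidin precursor, gave a small difference near the detection limit. Its log2 ratios were -0.04, 0.14 and 0.14 on the 30-day arrays, -0.27, -0.22 and -0.17 on the 60-day arrays, and -0.10, 0.00 and -0.09 on the 90-day arrays. The 60-day ratios lay below those of every other array. CAMP was 1.16-fold lower at 60 days than at 120 days (log2 -0.22 ± 0.05 SE, n = 3, limma adjusted p = 0.0408; 0.0619 with the 120-day RNA set as a block). Its mean Cy5 levels were 7.87, 7.68 and 7.79 at 30, 60 and 90 days, and 7.85 at 120 days, and its 60-day spots were only 1.08, 1.05 and 1.00 times the background threshold. Across all 9 arrays its Cy5 level spanned 0.35 log2 units, less than the 0.61 of the median probe. The test thus rests on a narrow spread of a faint signal. Other measured cathelicidins did not pass at 60 days against 120 days (limma adjusted p = 0.0681 to 0.843). Their log2 differences were -0.14 for CATHL3, -0.16 for CATHL4, -0.32 for CATHL5 and 0.02 for CATHL6.

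LTF behaved unlike every other member. Its log2 ratios were -1.13, -2.51 and -0.18 on the 30-day arrays, -1.49, -4.53 and 1.64 on the 60-day arrays, and -2.12, -1.09 and -3.24 on the 90-day arrays. Replicates of 60 days thus lay on both sides of 0, and all 3 days overlapped. LTF did not differ detectably from 120 days at 30 days (log2 -1.27 ± 1.05 SE, n = 3, limma adjusted p = 0.496), 60 days (-1.46 ± 1.05, adjusted p = 0.367) or 90 days (-2.15 ± 1.05, adjusted p = 0.477). LTF was above background in both channels on all 9 arrays. Its Cy5 levels were 8.99, 12.61 and 12.84 on the 30-day arrays, 8.82, 10.53 and 14.42 on the 60-day arrays, and 12.98, 9.22 and 9.79 on the 90-day arrays. They spanned 5.61 log2 units, or 48.7-fold, the widest range of the 6 genes. High and low arrays occurred within every day.

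The 120-day RNA of LTF varied almost as much. Its Cy3 level averaged 10.24 in set A, 15.09 in set B and 12.94 in set C. The 3 spots of a set differed by at most 0.25 log2 units, whereas the sets differed by 4.85, which is 28.8-fold. For the median probe the 3 sets spanned 0.22 log2 units. In set B the LTF spots had an average raw signal of 37232, near the brightest spot means of those arrays (40590 to 40843), and whether the top of this range was compressed was not tested. The lowest ratio of 60 days, -4.53, was measured against set B, and the highest, 1.64, came from the array with the brightest Cy5 level.

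Because lactoferrin is also a product of epithelia, 15 epithelial markers were set beside it. Their summed Cy3 level at 120 days was 15.15 in set A, 16.87 in set B and 16.34 in set C, the same order as LTF. Their median log2 ratio was -0.13, -1.80 and -0.47 on the 30-day arrays, -0.25, -2.30 and -0.57 on the 60-day arrays, and -1.58, -0.02 and -0.74 on the 90-day arrays, lowest on the 3 arrays of set B. Their summed Cy5 level ran from 12.02 to 14.95 at 30 days, 11.86 to 14.15 at 60 days and 12.92 to 15.04 at 90 days. The part of epithelial cells in the LTF values was not tested.

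**Figure D2:**
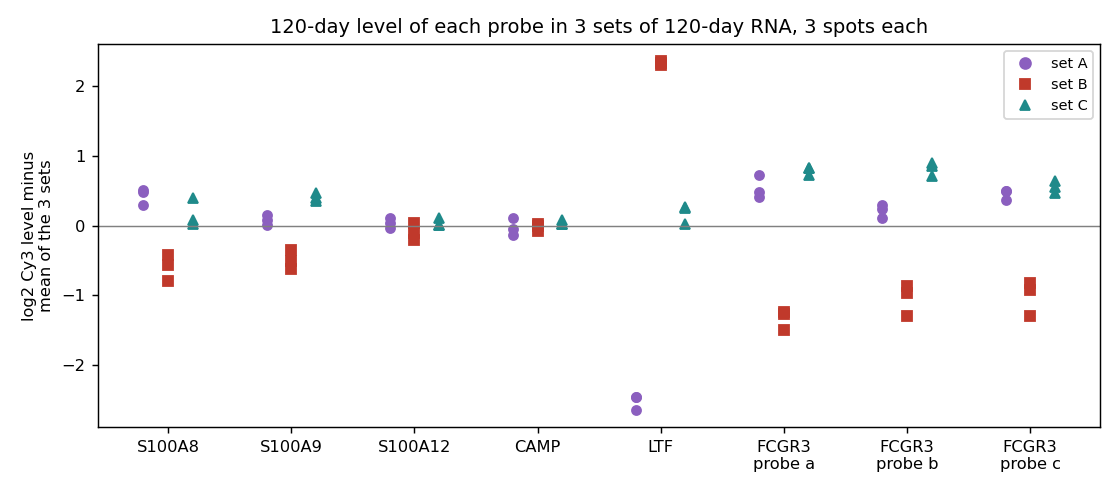
Level of each probe at 120 days, as log2 Cy3 level minus the mean of the 3 sets (y axis), for the 8 probes (x axis), with 3 spots per set of 120-day RNA. The sets lie 4.85 log2 units apart for LTF and 1.56 to 2.12 for the FCGR3 probes, but 0.07 for CAMP and 0.13 for S100A12.

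FCGR3, the immunoglobulin receptor CD16, was read by 3 probes, called a, b and c here in order of brightness. They varied together over the arrays (r between probes 0.963 to 0.981, n = 9 arrays). Probe a had log2 ratios of -3.44, 2.00 and -1.13 on the 30-day arrays, -4.87, -1.47 and -4.15 on the 60-day arrays, and 1.50, -0.66 and -1.77 on the 90-day arrays. All the 60-day values were negative, but 60 days replicate 2, the array of set B, overlapped the other days. Probe b followed, with -2.46, 1.18 and -2.31 on the 30-day arrays, -4.18, -1.73 and -3.89 on the 60-day arrays, and 1.02, -0.22 and -1.45 on the 90-day arrays. Replicates 1 and 3 of 60 days were thus the lowest of all arrays in both probes. Probe b fell 9.64-fold at 60 days against 120 days (log2 -3.27 ± 0.83 SE, n = 3, limma adjusted p = 0.0417). Probe a (log2 -3.50 ± 1.10, adjusted p = 0.0744) and probe c (-2.42 ± 0.75, adjusted p = 0.0713) gave differences of similar size that did not pass. The 60-day spots were 1.24, 2.37 and 1.83 times the background threshold for probe b and 1.22, 1.50 and 1.45 for probe c. Those of probe a were at 1.74, 3.86 and 2.91 times. The sizes of these differences are thus less certain than their direction. With the 120-day RNA set as a block all 3 probes passed, at adjusted p = 0.0156, 0.00892 and 0.0134 for probes a, b and c.

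The sets differed in FCGR3 as well. The 120-day level of probe a was 12.70 in set A, 10.83 in set B and 12.95 in set C, a span of 4.36-fold, and spots of a set differed by at most 0.32 log2 units. Set B was the lowest for all 3 probes. In Cy5, probe a had levels of 9.13, 12.66 and 11.86 on the 30-day arrays, 8.02, 9.43 and 8.84 on the 60-day arrays, and 12.42, 11.99 and 11.11 on the 90-day arrays. The highest 60-day level therefore stood above 30 days replicate 1 alone. For probes b and c the 60-day levels lay below those of every 30-day and 90-day array.

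**Figure D3:**
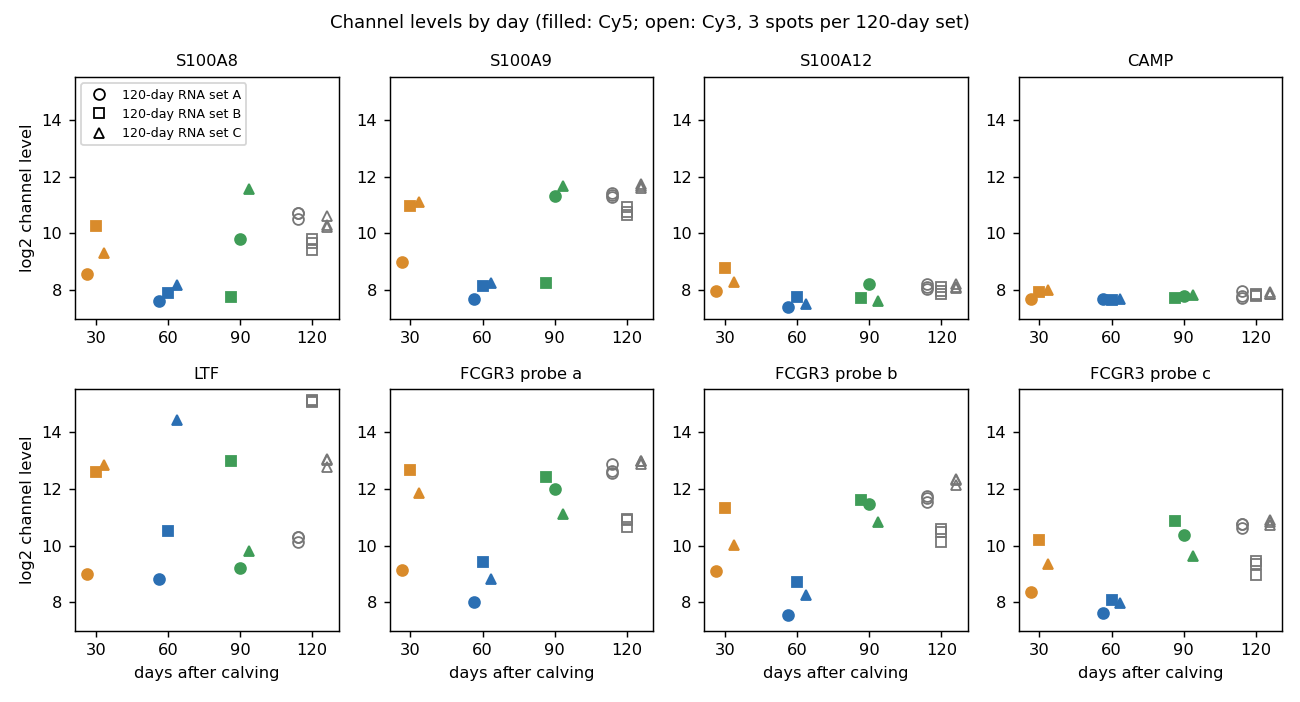
Log2 channel level (y axis) by days after calving (x axis) for each of the 8 probes, with filled points for Cy5 on the 3 arrays of each day and open points for Cy3 at 120 days, 3 spots per set. The mean levels of S100A8, S100A9 and the FCGR3 probes are lowest at 60 days, with overlap of single arrays for S100A8 and FCGR3 probe a. CAMP and S100A12 stay near the lower end of the scale, and LTF is scattered at every time.

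Set against 120 days, 4 of the 8 probes fell at 60 days (S100A8, S100A9, CAMP and FCGR3 probe b) and 0 rose, where 6.75% of all tested probes fell and 14.2% changed in either direction. The difference of CAMP, counted here, was only 1.16-fold and came from spots near the background threshold. All 8 log2 differences were negative, with a median of -2.39, against -0.02 over all probes. On all 3 arrays of 60 days 7 of the 8 were below 0, as were 30.5% of all probes, with LTF as the exception. By an unadjusted p under 0.05, 7 were lower, as were 17% of all probes. Taking the brightest probe of each gene, 3 of 6 genes fell (7.05% of all 14281 genes did). At 30 days 0 of 8 passed in limma, where 0.203% of all probes did, and 0 had an unadjusted p under 0.05, where 20.6% of all probes did. On all 3 arrays of 30 days 1 of 8 was below 0 (27.5% of all probes were), and on those of 90 days 2 of 8 (18.9%). The differences of 30 days from 120 days ran from -1.27 (LTF) to 0.28 (S100A12), with adjusted p of 0.406 to 0.667. At 90 days 0 of 8 passed as well (0.00258% of all probes did), 0 at an unadjusted p under 0.05 (11.4% of all probes), with differences of -2.15 (LTF) to -0.04 (FCGR3 probe c). All these comparisons use the same 120-day RNAs, so they are not independent. The calls depended on single arrays: without 60 days replicate 1 or 60 days replicate 3 the count at 60 days was 0 of 8, while calls over all probes came to 381 and 232, against 5511 with all arrays.

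Contrasts between days do not contain a fixed dye effect, which stays in the ratios to 120 days because no array had the dyes exchanged. Between 60 and 30 days, 0 of 8 probes passed in limma, as did 0% of all probes. At an unadjusted p under 0.05, 3 of 8 were lower at 60 days: S100A9 (log2 -2.45 ± 0.86 SE, adjusted p = 0.366), S100A12 (-0.86 ± 0.30, adjusted p = 0.363) and CAMP (-0.30 ± 0.08, adjusted p = 0.343). Of all probes 6.65% were lower by that measure. Between 90 and 60 days 0 of 8 passed, again with 0% of all probes. At an unadjusted p under 0.05, 2 were higher at 90 days, S100A9 (2.43 ± 0.86, adjusted p = 0.468) and FCGR3 probe b (3.05 ± 1.17, adjusted p = 0.485), as 9.79% of all probes differed in either direction. Between 90 and 30 days 0 of 8 passed, 0 of them at an unadjusted p under 0.05 (5.48% of all probes). The low values of 60 days were therefore past the threshold only against 120 days. The 60-day ratios of 2 probes, S100A9 and CAMP, all lay below every array of 30 and 90 days, as did those of 4.56% of all probes. For Cy5 levels this held for 3 probes, S100A9 and FCGR3 b and c (4.49% of all probes).

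**Figure D4:**
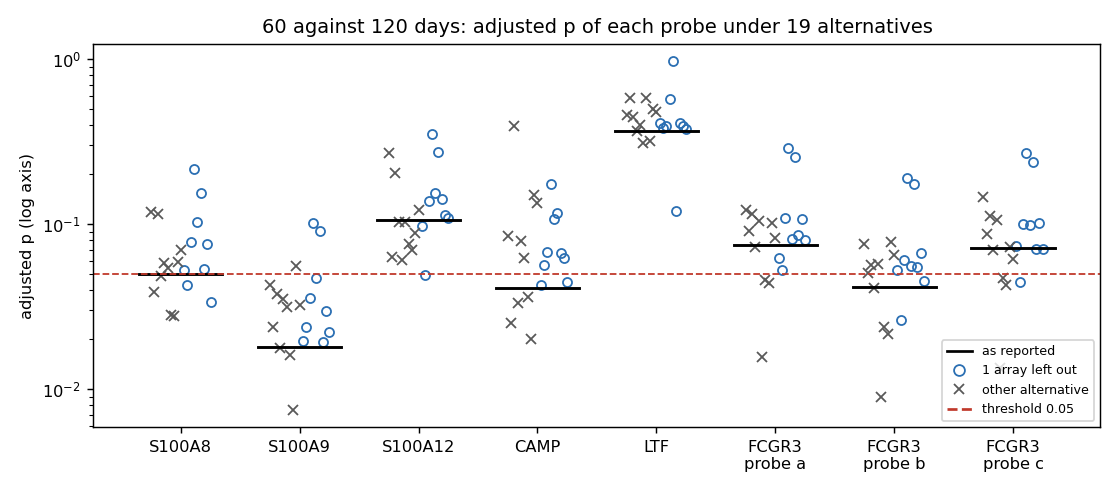
Adjusted p of the 60-day against 120-day difference (y axis, log scale) for each of the 8 probes (x axis) under 19 alternative ways of processing, with circles for fits that leave out 1 array, crosses for other alternatives and a line for the reported value. S100A9 stays below the 0.05 threshold in 16 of the 19, S100A8, CAMP and FCGR3 probe b in 6 each, and LTF in 0.

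Markers of macrophages moved with the members other than LTF, to varying degrees. A list of 17 genes marks macrophages and monocytes. On replicates 1, 2 and 3 of 30 days its median log2 ratio stood at -1.17, 2.46 and 1.86. It was -0.83, -0.06 and -0.46 on those of 60 days and 2.10, 0.54 and 0.26 on those of 90 days. FCGR3 went with it over the 9 arrays (r = 0.902, rho = 0.917), more closely than S100A9 (r = 0.583, rho = 0.633) or S100A8 (r = 0.535, rho = 0.717). The faint S100A12 (r = 0.691, rho = 0.633) and CAMP (r = 0.680, rho = 0.600) lay between in r. LTF did not go with it (r = -0.139, rho = -0.183). The arrays that separate them can be named. On 90 days replicate 1, where the macrophage median was 2.10, the FCGR3 probes had ratios of 1.02 to 1.51, yet S100A8 stood at -1.90 and S100A9 at -2.50. On 90 days replicate 3 S100A8 was at 0.95 while the FCGR3 probes were at -1.77 to -1.26. The summed Cy5 level of the macrophage markers ran from 13.004 to 17.44 at 30 days, 13.14 to 14.54 at 60 days and 15.39 to 17.12 at 90 days. At 60 days all 17 were above background on every array. Against 120 days 0 of 17 passed at 60 days (median -0.40, against -0.05 over all genes). Their part in the FCGR3 and calgranulin values was not tested.

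Of all genes 7.05% fell and 6.09% rose at 60 days against 120 days, with a median log2 of -0.05, and each list of genes is read against these. Of 21 measured lymphocyte markers 8 fell and 0 rose, with a median of -1.50, and their summed Cy5 level ran from 14.41 to 15.78 at 30 days, 13.64 to 14.57 at 60 days and 13.84 to 16.48 at 90 days. FCGR3, which natural killer cells carry, went with their median over the arrays (r = 0.853), S100A9 less so (r = 0.445). Granulosa markers were above background on every array, 12 to 15 of 15. Over the arrays their median log2 ratio went against the members other than LTF. Its r was -0.50 with S100A8, -0.56 with S100A9, -0.58 with S100A12, -0.73 with CAMP and -0.64 with FCGR3. With LTF it was 0.01. At 60 days against 120 days 4 of the 15 rose and 0 fell (median 1.07). Of 15 epithelial markers 3 fell and 0 rose (median -1.04), of 9 red blood cell genes 1 rose and 0 fell (median -0.23), and of 8 platelet genes 1 fell and 0 rose (median -0.29). With the 120-day RNA set as a block, where 11.1% of all genes fell and 6.94% rose, 10 lymphocyte, 10 epithelial, 3 macrophage, 2 platelet and 1 red blood cell genes fell, and 4 granulosa genes and 1 red blood cell gene rose. The part of these cell types in the members' values was not tested. Without the 3 arrays of highest macrophage median (30 days replicates 2 and 3 and 90 days replicate 1), the differences of 60 days are computed from the same 60-day arrays and stay as they were, while 1 of the 8 probes passed and not 4, in a fit with fewer arrays.

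**Figure D5:**
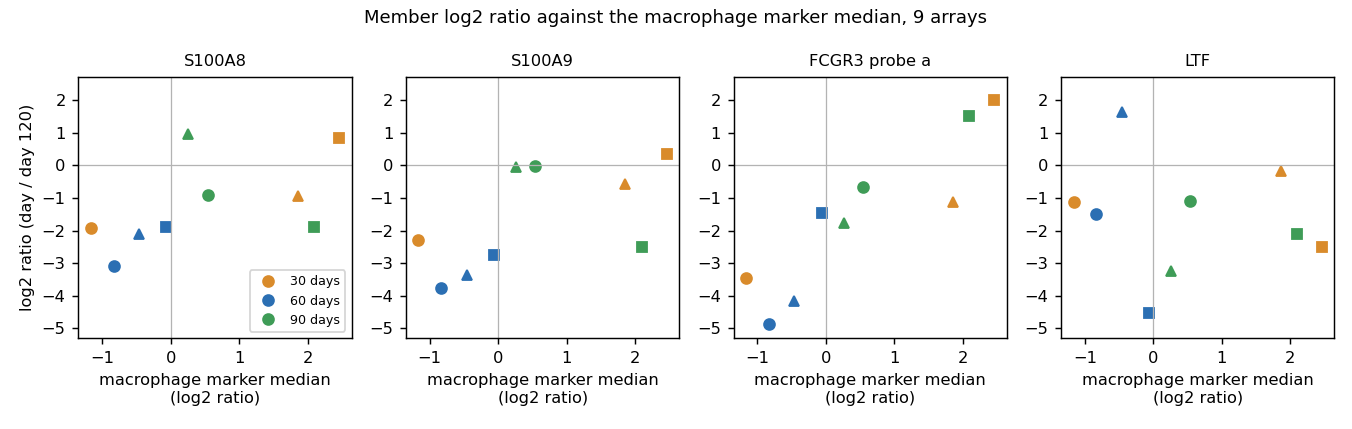
Log2 ratio to 120 days of 4 member probes (y axes) against the median log2 ratio of 17 macrophage and monocyte markers (x axes), 1 point per array, coloured by day. The FCGR3 points follow the marker median (r = 0.902), the S100A8 and S100A9 points do so less (r = 0.535 and 0.583), and the LTF points do not (r = -0.139).

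Other genes of neutrophil granules were in part lower at 60 days. Of 25 measured granule genes besides the members, 5 fell and 0 rose, with a median log2 of -0.46, and 88% were negative, as were 55.6% of all genes. With the 120-day RNA set as a block 11 of the 25 fell, the same 5 among them, against 11.1% of all genes. LCN2, which binds the iron carriers of bacteria and shares the secondary granule with lactoferrin, fell (log2 -2.51 ± 0.63 SE, n = 3, limma adjusted p = 0.0404). Its ratios were -1.43, -0.93 and -3.03 on the 30-day arrays, -2.21, -2.14 and -3.18 on the 60-day arrays, and -1.91, 0.28 and -3.01 on the 90-day arrays, so that 60 days did not stand apart from the other days. The calcium-binding annexin ANXA3 (-2.16 ± 0.32, adjusted p = 0.0108), the pattern recognition protein PTX3 (-1.63 ± 0.22, adjusted p = 0.00984) and PGLYRP1, which binds bacterial cell walls (-0.62 ± 0.09, adjusted p = 0.0103), fell as well. The 60-day ratios of PTX3 and PGLYRP1 overlapped those of 30 days, whose means were -1.35 and -0.44. PGLYRP1 was also faint, with spots of either channel above background on 2 of 3 arrays of 60 days. PTX3 is also a product of cumulus and granulosa cells. The proteins of primary granules did not pass. MPO, the myeloperoxidase, had 60-day spots not above background on any array, and 120-day spots above it on 2 of those 3. Its difference from 120 days was small (log2 -0.16 ± 0.06 SE, limma adjusted p = 0.0919). ELANE, the neutrophil elastase, had 0.09 ± 0.11 (adjusted p = 0.570). BPI, which permeabilises bacteria, had ratios of 0.25, -3.06 and 0.01 at 60 days, so that its mean of -0.93 ± 0.85 rests on replicate 2, the array of set B (adjusted p = 0.477, and 0.0173 with the set as a block). Its 120-day spots on the other 60-day arrays were not above background. MMP9, the gelatinase of tertiary granules, had -0.46 ± 1.29 at 60 days (adjusted p = 0.832). It was highest on 90 days replicate 1, at 6.66, and was raised on 30 days replicates 3 (2.60) and 2 (1.34) also. On the other arrays it lay at -0.78 to -0.02. The raised arrays were the 3 of highest macrophage median.

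Of 18 neutrophil surface genes 1 fell, near the share of all genes (7.05%). It was VNN2, a pantetheinase of the neutrophil membrane (log2 -5.73 ± 0.85 SE, n = 3, limma adjusted p = 0.0108). None rose, and the median was -0.25. CXCR2, the receptor for the chemokine CXCL8, had ratios of -2.29, 3.54 and -2.92 on the 30-day arrays, -3.59, -0.39 and -2.94 on the 60-day arrays, and -0.69, -0.62 and -0.02 on the 90-day arrays. Its difference at 60 days did not pass (-2.31 ± 1.19, adjusted p = 0.227). Its high value came from 30 days replicate 2, the array on which FCGR3 probe a and S100A12 also had their highest ratios. Of 5 subunits of the phagocyte oxidase, which makes superoxide, 0 rose and 0 fell, with a median of -0.49. In the fit with the 120-day RNA set as a block 3 surface genes and 1 oxidase gene fell, VNN2, TLR4, ICAM3 and RAC2.

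Of 13 other measured members of the S100 family 3 fell at 60 days and 0 rose, where 7.05% of all genes fell. The other 10 did not pass. All 13 differences were negative, as were 55.6% of those of all genes, with a median of -0.37. S100A10, the annexin A2 partner found in many cell types, had ratios of -3.00, -0.27 and -0.40 on the 30-day arrays, -4.15, -3.16 and -2.90 on the 60-day arrays, and 1.06, -1.10 and -0.62 on the 90-day arrays, and fell 10.6-fold at 60 days (log2 -3.40 ± 0.61 SE, n = 3, limma adjusted p = 0.0169). Its values at 60 days overlapped only 30 days replicate 1, which was low for S100A9 and FCGR3 also. S100A13 (-2.35 ± 0.52, adjusted p = 0.0293) and S100A2 (-1.74 ± 0.31, adjusted p = 0.0167) fell as well. Both had low mean ratios at 30 days (-1.57 and -1.69) and 90 days (-1.21 and -1.24) too, so that 60 days did not stand apart. S100A4, abundant in white blood cells and fibroblasts, had -2.82 ± 1.06 and did not pass (adjusted p = 0.116), except with the 120-day RNA set as a block (0.0401).

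Of 6 receptors and partners of the calgranulins 0 passed at 60 days, with a median of -0.57. AGER, the receptor of S100A12, had 0.04 ± 0.17 (limma adjusted p = 0.874), and TLR4, a receptor of calprotectin, -1.10 ± 0.41 (adjusted p = 0.117). TLR4 (adjusted p = 0.0358) and its partner LY96 fell when the 120-day RNA set was a block. Of 9 Fc receptor genes besides FCGR3, 0 rose and 0 fell, with a median of -0.39. A broader list of 13 genes held colony-stimulating factors, cytokine receptors, and signalling and transcription factors that are not confined to CSF3R. Of these 1 rose and 3 fell (median -0.20), where 6.09% of all genes rose and 7.05% fell. The same 4 passed with the 120-day RNA set as a block. IL6R, the interleukin 6 receptor, rose (1.33 ± 0.15, adjusted p = 0.00803), while the kinase JAK2 (-0.99 ± 0.24, adjusted p = 0.0387), the transcription factor STAT3 (-0.64 ± 0.07, adjusted p = 0.00792) and the granulocyte factor CEBPA (-0.33 ± 0.05, adjusted p = 0.0132) fell. The 60-day ratios of IL6R overlapped those of 30 days, whose mean was 0.98. The 60-day spots of CEBPA were not above background on any array, and those of STAT3 were on 2 of 3. On the 60-day arrays the 120-day spots of all 4 genes were above background on 2 of 3. The sizes of the changes of all 4 genes are thus not firm. CSF3, the ligand of CSF3R, had -0.20 ± 0.09 (adjusted p = 0.182). Of 7 genes of iron handling, set beside lactoferrin, TFRC, the transferrin receptor, rose (0.63 ± 0.13, adjusted p = 0.0221) and 0 fell, with a median of -0.65. The 60-day ratios of TFRC overlapped those of 30 days, whose mean was 0.49. With the block SLC40A1 and ITLN2 of the iron list fell. At 30 and 90 days 0 genes of any of these lists passed. With the block PTX3, BPI, OLFM4, S100A2 and ITLN2 were lower and IL6R was higher at 30 days than at 120 days (3.12% of all genes passed), and S100A2 was lower at 90 days (0.658%). CATHL3, CATHL4, CATHL5, CATHL6, ICAM3, RAC2, LY96, SLC40A1, ITLN2 and OLFM4 are named in this report after their values were seen.

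Over the 9 arrays the members other than LTF went together by their ratios, to varying degrees (r from 0.583 to 0.903). CAMP and S100A12 went with S100A9 (r = 0.819 and 0.749) and with each other (r = 0.873), although both were faint. FCGR3 was nearer to S100A12 (r = 0.748) than to S100A9 (r = 0.622) or S100A8 (r = 0.583). LTF went with none of them (r from -0.395 to 0.136). Among 14280 other genes, the closest to S100A9 were FBXO45 (r = 0.936), DEFB10 (0.934) and GPR177 (0.921). Closest to LTF were MTOR (0.948), EPHX4 (0.937) and CLCA1 (0.926), and closest to FCGR3 were LOC508666 (0.995), GPR18 (0.989) and EVI2B (0.986). With so many genes and n = 9 arrays, high values of r arise readily, and they are given as a description.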

How the data were processed

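The deposited array files hold, for each of 45220 spots, the mean and median pixel intensity and local background in both channels, not normalised, per the file headers. RNA was amplified in 2 rounds and labelled chemically, per the labels' protocols. No source used here names the scanner or its software. A value table by the authors holds deposited log2 values (column medians -0.021 to 0.026) whose scale, centring and direction could not be settled, because its columns did not match their arrays, and it was not used. Background was corrected by normexp (offset 50) on mean intensities, which were then normalised by loess within arrays, with control spots at weight 0, in limma 3.58.1 (R 4.3.3). Channel levels were log2 signals after Aquantile scaling. Probes above background in either channel on at least 3 arrays were kept. One limma model with 1 coefficient per day was fitted to all 9 arrays (6 residual and 1.35 prior degrees of freedom), and p-values were adjusted by Benjamini-Hochberg over 38823 probes at a threshold of 0.05. The fit was tested on simulated data. The 3 arrays per day limit the precision, and no label ties a replicate to a cow.

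Of all probes 21790 had 1 gene symbol and 22004 none, and older symbols were matched through RefSeq. Each gene was read by its probe of highest mean brightness. All member probes were named. From each list of related genes, those past the threshold at 60 days were named, up to the 4 largest changes, with LCN2, MPO, ELANE, BPI, MMP9, CXCR2, S100A4, S100A10, CSF3, TLR4 and AGER in any case. The 3 genes most like S100A9, LTF and FCGR3 were also named. Members, lists, tests and alternatives were chosen with earlier results of these data known. The alternatives changed the background correction, normalisation, pixel summary, dim-probe filter, blocks, array weights, eBayes settings, arrays and probe summary.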

Additional observations from a re-analysis of the deposited data

How the results depend on the processing

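The count of member probes past the threshold at 60 days against 120 days, 4 of 8, was the value that depended on the processing. It was 1 without background correction, 1 with median pixel intensities, 1 with the replicate number as a block, 1 without the 3 arrays of highest macrophage median and 0 when the fit held the 60-day arrays alone. With probes averaged per gene it was 1 of 6 genes. It was 6 with array weights and with trend and robust eBayes settings, where FCGR3 probes a and c passed too, 3 with median centring and 4 with no filter on dim probes. It ranged from 0 to 5 when arrays were left out one at a time, and was 0 without 60 days replicate 1 or replicate 3, 1 without 30 days replicate 3, 60 days replicate 2 or 90 days replicate 1 or 2, 2 without 30 days replicate 1, and 5 without 30 days replicate 2. The block did not rest on a pairing in the labels: deviations of same-numbered arrays correlated at -0.688 to 0.510, over 0.1 in 4 of 9 pairs, and 4 of 9 arrays correlated best with their own number. The count over all probes moved likewise, with 5511 as reported, 2614 without background correction, 611 with median pixels, 1696 with the replicate block, 697 without the 3 arrays, 0 with only the 60-day arrays, 381 without 60 days replicate 1, 3008 without 60 days replicate 2, 232 without 60 days replicate 3 and 3400 without 30 days replicate 3. With probes averaged, 1361 genes passed. With the 120-day RNA set as a block 4 member probes passed, but these were S100A9 and the 3 FCGR3 probes, without S100A8 and CAMP. S100A9 missed the threshold in 3 of 19 alternatives, without 60 days replicate 1 (limma adjusted p = 0.102), without 60 days replicate 3 (0.0906) and with only the 60-day arrays (0.0557), and its log2 difference stayed between -3.55 and -2.96. In the other 5 comparisons 0 member probes passed in any alternative. The cause of these changes was not tested, apart from the smaller number of arrays where some were left out.

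Signs changed only where the reported difference had not passed. Against 120 days at 30 days, S100A12 was at -0.15 without the 3 arrays and ranged from -0.033 to 0.50 with 1 array left out. CAMP was at -0.16 with median pixels and -0.036 without the 3 arrays, and FCGR3 ranged from -2.29 to 0.43. LTF at 60 days ranged from -3.01 to 0.072, with the high end reached without 60 days replicate 2. At 90 days S100A8 was at 0.014 without the 3 arrays and ranged from -1.41 to 0.014, and FCGR3 was at 0.22 with array weights and ranged from -1.21 to 0.42. For 60 minus 30 days LTF was at 0.19 with median centring, 0.0086 with median pixels and 0.12 with array weights, and ranged from -1.74 to 1.34. For 90 minus 60 days it ranged from -2.22 to 0.86. Of the single-gene values, 549 kept their direction and their side of the threshold, 31 lost a call, 4 gained one and these 16 changed sign. The alternative with the authors' value table was not run. CAMP and S100A12 lay too near the negative controls for a firm size of change.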

Other observations

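Some secreted antimicrobial genes outside the members differed widely between the 3 sets of 120-day RNA, as LTF did. They were chosen after their values were seen, and are given as a description with no test. LAP and TAP, the lingual and tracheal beta-defensins of cattle, which are known as products of epithelia, had Cy3 levels of 9.53 and 10.07 in set A, 14.82 and 14.90 in set B, and 8.48 and 9.12 in set C. OLFM4, a protein of secondary granules and of gut and uterine epithelium, was at 7.99, 13.35 and 9.65 in sets A, B and C, and TCN1, a granule carrier of vitamin B12, at 9.85, 12.39 and 9.87. LYZ, the lysozyme of granules and macrophages, ran the other way, at 14.22, 10.96 and 13.91. Of 38 related granule and S100 genes, 9 spanned at least 2 log2 units between the sets, and 3 of these had the order of LTF, with set B highest and set A lowest. That order held for 15.1% of all tested probes and for 44.2% of the 758 probes that spanned at least 2 units.

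The Cy5 level of MMP9, the gelatinase, was 15.11 on 90 days replicate 1, against 7.62 to 11.40 on the other arrays, while S100A9 had a level of 8.26 there, its lowest outside 60 days.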
